A study of Mus musculus with 12 samples.

Results

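Genes that mark the cells covering blood vessels, pericytes and vascular smooth muscle cells, were followed across 12 bulk Rd76-9 tumors. They are 10 of the 38898 genes obtained by adding the deposited transcripts of each gene, and they were chosen by name. The 6 pericyte genes are *Pdgfrb*, *Rgs5*, *Cspg4*, *Notch3*, *Kcnj8* and *Abcc9*, and the 4 contractile genes are *Acta2*, *Tagln*, *Myh11* and *Cnn1*. All 10 had enough reads to be among the 17602 genes tested.

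Rd76-9 is a mouse rhabdomyosarcoma cell line, and it was grown under the skin of the flank of wild-type C57/Bl6J mice. The 12 tumors were dissected and frozen at day 16, 3 from each of 4 groups. The vehicle group (m1, m2, m3) received saline and empty nanoparticles. The VCR group (m4, m5, m6) received vincristine, a drug that blocks microtubule assembly, at 0.25 mg/kg. The RCM1-NPFA group (m7, m8, m9) received RCM1, an inhibitor of the transcription factor FOXM1, at 8 µg per injection inside nanoparticles that carry folic acid. The VCR+RCM1-NPFA group (m10, m11, m12) received both drugs at these doses. All mice were young adults carrying the same cell line, each tumor came from 1 mouse, and each group rests on 3 mice. The titles name the vehicle group as control, while its treatment label also names RCM1 nanoparticles, and the groups follow the titles.

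Pericytes sit on capillaries and share a basement membrane with the endothelium, whereas smooth muscle cells wrap larger vessels and contract. Endothelial cells secrete PDGF-B, which binds the receptor encoded by *Pdgfrb* and recruits pericytes, and NOTCH3, activated by ligands such as JAG1, keeps mural cells mature. The contractile genes are switched on by serum response factor (SRF) with myocardin or related cofactors, which bind a sequence called the CArG box, a run of A and T between CC and GG. In tumors, vessels are often poorly covered, and mural genes are therefore read beside endothelial ones. No member is fully particular to mural cells, since fibroblasts also express *Pdgfrb* and activated fibroblasts *Acta2*. The bulk samples also contain the rhabdomyosarcoma cells themselves. How much of each member's RNA came from these tumor cells was not tested, so the levels cannot be read as vessel coverage alone.

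The promoters of *Rgs5* and *Acta2* are shown. *Rgs5* was the member whose level separated treated from vehicle-treated tumors. *Acta2* was the member whose promoter, of the 7 searched, held CArG-like sequences. Each runs from 250 bases before to 50 bases after the RefSeq start site in GRCm38.p6, at chr1:169655251-169655550 on the plus strand for *Rgs5* and at chr19:34255324-34255623 on the minus strand for *Acta2*. Capitals mark CArG boxes with at most 1 base other than A or T in the middle. This looser form was chosen after the strict form had no match among the 7 members searched.
Rgs5: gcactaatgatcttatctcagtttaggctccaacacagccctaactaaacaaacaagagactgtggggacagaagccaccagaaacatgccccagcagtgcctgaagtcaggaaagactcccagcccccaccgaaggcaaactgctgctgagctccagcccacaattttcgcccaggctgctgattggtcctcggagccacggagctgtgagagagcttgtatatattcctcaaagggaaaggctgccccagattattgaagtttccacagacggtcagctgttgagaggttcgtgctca
Acta2: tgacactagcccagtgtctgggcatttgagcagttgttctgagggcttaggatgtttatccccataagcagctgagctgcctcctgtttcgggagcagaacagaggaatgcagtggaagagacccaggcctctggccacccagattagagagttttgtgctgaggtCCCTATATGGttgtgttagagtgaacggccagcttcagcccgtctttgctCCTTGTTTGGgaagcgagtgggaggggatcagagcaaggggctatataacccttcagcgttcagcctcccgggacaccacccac
The *Acta2* promoter held 2 such matches, whose first bases lie 84 and 34 bases before the start site. By its coordinates this start site lies inside the interval of the gene, chr19:34240336-34255585, and is not its outermost end. Promoter sequences were matched for 7 of 10 members. The strict CArG box was in 0 of these 7 and in 1.63% of 32817 promoters of the same length, and the looser form in 1 of 7 and in 9.99%. The core TGGGAA, bound by RBPJ, the DNA-binding partner of Notch receptors, was searched on both strands and found in 3 of 7, those of *Kcnj8*, *Abcc9* and *Acta2*, against 25.6% of all promoters. In the *Acta2* promoter this core overlaps the nearer CArG-like match.

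*Acta2* encodes the smooth muscle actin, and it has close relatives, *Acta1* of skeletal muscle and *Actg2* of smooth muscle. Their ends are shown because *Acta1* reached very high levels in some of these tumors, so that its reads had to be told apart from those of *Acta2*. These are the last 60 coding bases, 5′ to 3′, with capitals where a gene differs from *Acta2*.
Acta2: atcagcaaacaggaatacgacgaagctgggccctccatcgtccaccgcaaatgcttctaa
Acta1: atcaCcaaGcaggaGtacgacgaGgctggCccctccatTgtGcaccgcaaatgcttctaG
Actg2: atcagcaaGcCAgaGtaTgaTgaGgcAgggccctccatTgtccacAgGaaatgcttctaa
Over 1100 aligned coding bases, *Acta1* differed from *Acta2* at 157 and *Actg2* at 172, and the longest stretch without a difference was 29 bases for each. Reads were assigned by stretches of 31 bases, so no full stretch of these coding sequences was shared. These coding sequences and the shares that follow come from the GENCODE annotation, while the deposited reads were assigned to RefSeq transcripts. Over whole GENCODE transcripts, 1.39% of the 31-base stretches of *Acta2* also occurred in another gene. The share was 1.41% for *Abcc9*, 1.35% for *Notch3*, 0.905% for *Myh11*, 0.0664% for *Rgs5* and 0 for the other 5 members.

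The tumors had between 29342195 and 32108055 assigned reads each. Transcripts of the Y chromosome were present in 7 of the 12 tumors, so male and female mice were mixed, and not evenly. These tumors were m3 alone of the vehicle group, m4 and m6 after VCR, m8 and m9 after RCM1-NPFA, and m11 and m12 after the combination. Skeletal muscle fibre genes differed most between tumors. Their level is given as TPM, which corrects reads for transcript length and scales each tumor to the same total. The TPM of 18 such genes summed to between 101 and 273 in vehicle-treated tumors, 2012 to 12590 after VCR, 268 to 21780 after RCM1-NPFA and 595 to 5395 after the combination. Because the tumors are bulk tissue, fewer cells of a type and less RNA per cell cannot be told apart in any of the values that follow.

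*Pdgfrb* and *Acta2* were the most abundant members, with means of 75.0 and 66.9 TPM over the 12 tumors, above 88.1% and 86.5% of tested genes. *Rgs5* followed with 16.4 TPM, then *Notch3* with 11.5 and *Tagln* with 8.76 TPM. *Cspg4*, *Kcnj8* and *Abcc9* had 4.98, 3.58 and 2.51 TPM. *Myh11*, the smooth muscle myosin heavy chain, and *Cnn1*, the actin-binding calponin, were the lowest, at 1.27 and 0.498 TPM. The genes that define mature smooth muscle were thus near the lower end, and *Cnn1* rested on 1 to 28 reads per tumor, while *Pdgfrb* had 4898 to 9802. In no member did the highest group mean exceed the lowest by more than 1.65-fold. The spread within a group was often as large, with a largest coefficient of variation from 15.7% for *Rgs5* to 99.4% for *Cnn1*.

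**Figure D1:**
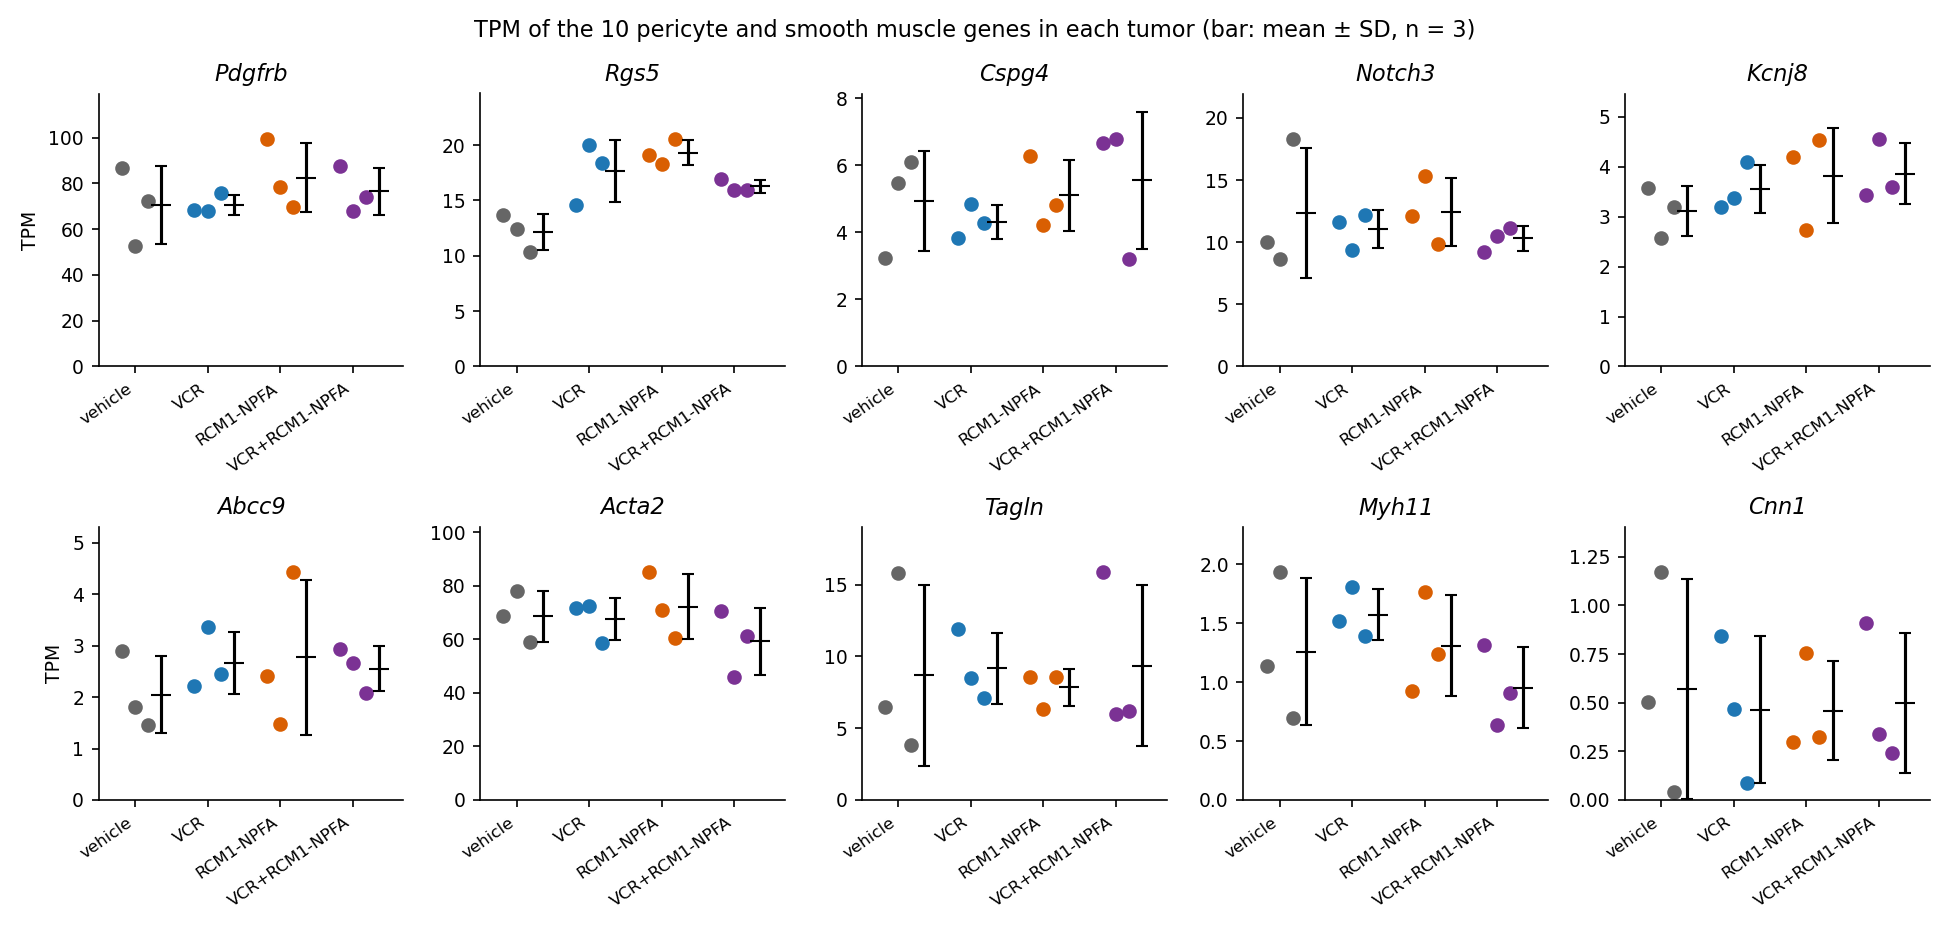
TPM of each of the 10 genes (y axis, from 0) in each tumor, 1 panel per gene. The x axis gives the 4 groups, points are tumors in order of their numbers from left to right, and black bars are the mean ± SD of 3 tumors. For *Rgs5* all 9 treated tumors sit above the 3 vehicle-treated tumors, whose highest value is 13.6 TPM, while for every other gene the vehicle-treated tumors lie within the range of the treated ones or overlap it.

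*Rgs5* was the member whose levels in treated tumors did not overlap those in vehicle-treated tumors. It encodes a regulator that shortens signaling by G proteins, is a classical marker of pericytes, and lies at chr1:169655501-169695813 of GRCm38. Its level was 13.6, 12.4 and 10.4 TPM in the vehicle-treated tumors m1, m2 and m3. It was 14.6, 20.0 and 18.4 TPM after VCR, 19.1, 18.3 and 20.6 TPM after RCM1-NPFA, and 16.9, 15.9 and 15.9 TPM after the combination. All 9 treated tumors were thus above all 3 vehicle-treated tumors, an order that 1.74% of the tested genes shared. Genes expressed by endothelium were among them, *Esam* (vehicle at most 16.6 TPM, treated at least 17.0), *Robo4* (7.26 and 7.63) and *Eng* (17.4 and 17.7). So was the fibroblast gene *Col1a1* (150 and 164). The endothelial genes *Pecam1*, *Cdh5*, *Egfl7* and *Tie1* overlapped. The group means were 12.2 ± 1.65 TPM for vehicle, 17.6 ± 2.77 for VCR, 19.3 ± 1.13 for RCM1-NPFA and 16.3 ± 0.58 for the combination (SD, n = 3 each).

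After VCR the log2 fold change of *Rgs5* was 0.60 (standard error 0.11), a 1.52-fold rise, with an edgeR adjusted p of 0.0651. It was the only one of the 10 members called at the threshold of 0.1, in a comparison that called 977 genes, 5.55% of those tested, and 2.8% as higher. DESeq2 with all 12 tumors, which called 14.4% of genes, also called it (adjusted p = 0.000458). The edgeR call was lost without m2, m4, m5 or m11, and with a term for the level of muscle fibre genes or of endothelial genes, where the log2 fold change was 0.41 and 0.35. Over the fits that omit 1 tumor, the edgeR adjusted p ran from 0.0258 to 0.280.

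After RCM1-NPFA the log2 fold change of *Rgs5* was 0.69 (standard error 0.11), or 1.62-fold. Its unadjusted p in edgeR, 6.7e-05, was the lowest of all 17602 genes, but the adjusted p of 0.418 missed the threshold. EdgeR called 0 genes in this comparison, 0% of those tested, and 9.78% had an unadjusted p under 0.05. DESeq2 called *Rgs5* (adjusted p = 0.000535) among 278 genes, 1.52% of those it tested. After the combination the log2 fold change was 0.40 (standard error 0.11), or 1.32-fold, with an edgeR adjusted p of 0.666 (0.00443 before adjustment). EdgeR again called 0 genes (0%), 7.31% had an unadjusted p under 0.05, and DESeq2 with all 12 tumors called 0.362% of genes and gave *Rgs5* an adjusted p of 0.179. The two-sided exact permutation test gave p = 0.1 for each of these comparisons, the smallest p that 3 tumors against 3 allow. *Rgs5* was higher without overlap in each of them, as were 11% of tested genes after VCR, 4.23% after RCM1-NPFA and 7.49% after the combination. The comparisons share the vehicle-treated tumors, so they are not independent.

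The combination did not have the highest *Rgs5*. All 3 combination tumors were below all 3 RCM1-NPFA tumors, an order shared by 1.61% of genes, with a log2 fold change of -0.29 (standard error 0.11, unadjusted p = 0.0259, edgeR adjusted p = 0.9999). Against VCR the groups overlapped, and the value was -0.20 (standard error 0.11, unadjusted p = 0.101, edgeR adjusted p = 0.855). EdgeR and DESeq2 each called 0 genes (0%) in both comparisons, with an unadjusted p under 0.05 for 2.07% of genes against RCM1-NPFA and 5.26% against VCR. The interaction compares the combination with what adding both single-drug changes would give. For *Rgs5* it was -0.89 in log2 units (standard error 0.16), and edgeR gave it an unadjusted p of 0.000144, adjusted to 0.293. EdgeR called 0 interactions (0%), 13.8% of genes had an unadjusted p under 0.05, and DESeq2 called 2.84% of the genes it tested, *Rgs5* among them (adjusted p = 0.000902).

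*Pdgfrb*, the receptor through which PDGF-B recruits pericytes, lies on chromosome 18 and overlapped between all groups. It had 86.5, 52.8 and 72.1 TPM in vehicle-treated tumors, 68.2, 67.8 and 75.6 TPM after VCR, 99.4, 78.3 and 69.8 TPM after RCM1-NPFA, and 87.7, 67.9 and 73.8 TPM after the combination. The vehicle group alone covered most of this range, from m2 at the bottom to m1. Against vehicle its log2 fold change after VCR was 0.062, and it was 0.25 after RCM1-NPFA and 0.10 after the combination (standard error 0.17 each), and the lowest unadjusted p was 0.175. The value after RCM1-NPFA was 0.058 without m2 and 0.10 without m7.

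*Cspg4* encodes the proteoglycan NG2 on the pericyte surface and lies at chr9:56865104-56899870. It ranged from 3.20 TPM in m12 to 6.79 TPM in m11, both combination tumors, so its extremes fell within 1 group. *Notch3* lies at chr17:32120820-32166896 and ranged from 8.62 TPM in m2 to 18.3 TPM in m3, which are both vehicle-treated. Neither gene had an unadjusted p under 0.05 in any comparison, and both gave log2 fold changes against vehicle between -0.30 and 0.13. The *Notch3* values depended on m3, and without it they were 0.36 after VCR, 0.49 after RCM1-NPFA and 0.19 after the combination.

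*Kcnj8* and *Abcc9* encode the pore Kir6.1 and the regulatory subunit SUR2 of a potassium channel that couples the metabolic state of mural cells to their membrane potential. The genes are neighbors, at chr6:142564837-142571614 and chr6:142587862-142702766. *Kcnj8* was between 2.57 and 3.57 TPM in vehicle-treated tumors and between 2.73 and 4.55 TPM in treated ones, and its log2 fold changes were 0.25, 0.32 and 0.30 (standard error 0.21 each, lowest unadjusted p 0.160). Without m2 these were 0.095, 0.17 and 0.15. *Abcc9* had 2.90, 1.80 and 1.45 TPM in vehicle-treated tumors. It had 2.21, 3.36 and 2.44 TPM after VCR, 2.42, 1.48 and 4.42 TPM after RCM1-NPFA, and 2.94, 2.66 and 2.08 TPM after the combination. Its highest values were in m9 and m5, which also had the highest muscle fibre sums, and its log2 fold changes of 0.46, 0.46 and 0.31 (standard error 0.35 each) did not pass the test. SUR2 is also used in striated muscle, with the pore Kir6.2 encoded by *Kcnj11*. *Kcnj11* had at most 0.0883 TPM in vehicle-treated tumors and 8.24 TPM in m9 and 4.48 TPM in m5, while *Abcc8*, its partner in other tissues, stayed at or below 0.151 TPM in every tumor. With a term for the muscle fibre level the log2 fold changes of *Abcc9* turned to -0.82, -0.44 and -0.68. The reads of *Abcc9* were spread over 10 transcript models, the largest with 22.9% of its TPM, and isoforms were not compared.

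Of the contractile genes, *Tagln*, *Myh11* and *Cnn1* varied strongly between tumors of the same group. None of the 4 was called by edgeR or DESeq2 or had an unadjusted p under 0.05 in any comparison. *Acta2*, at chr19:34240336-34255585, had 68.6, 77.8 and 59.1 TPM in vehicle-treated tumors and 71.5, 72.5 and 58.7 TPM after VCR. It had 84.9, 71.1 and 60.5 TPM after RCM1-NPFA and 70.6, 45.8 and 61.2 TPM after the combination. The groups overlapped. Over all tumors *Acta2* stayed between 45.8 and 84.9 TPM, while *Acta1*, the skeletal muscle actin, ran from 0.461 TPM in m3 to 3701 TPM in m9.

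*Tagln*, at chr9:45929628-45936058, encodes the actin-binding protein transgelin. It had 6.49, 15.8 and 3.79 TPM in vehicle-treated tumors, 11.9, 8.50 and 7.07 TPM after VCR, 8.57, 6.36 and 8.57 TPM after RCM1-NPFA, and 15.8, 5.99 and 6.22 TPM after the combination. A vehicle tumor and a combination tumor, m2 and m10, were thus the highest, and the vehicle group held both the lowest and one of the highest values. *Myh11*, at chr16:14194527-14292188, ranged from 0.637 TPM in m11 to 1.93 TPM in m2, and *Cnn1*, at chr9:22099221-22109221, from 0.0408 TPM in m3 to 1.17 TPM in m2. *Myh11* was lower in all combination tumors than in all VCR tumors by TPM, as were 3.87% of genes, with a log2 fold change of -0.69 (standard error 0.35, unadjusted p = 0.0727, edgeR adjusted p = 0.855). In CPM (counts scaled by library size and the TMM normalization factor) the same tumors overlapped. The two-sided exact permutation test on log2 CPM gave p = 0.2. Removing m2 moved the VCR change of *Tagln* from 0.18 to 0.89 and that of *Cnn1* from -0.09 to 0.99, and neither passed the test.

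**Figure D2:**
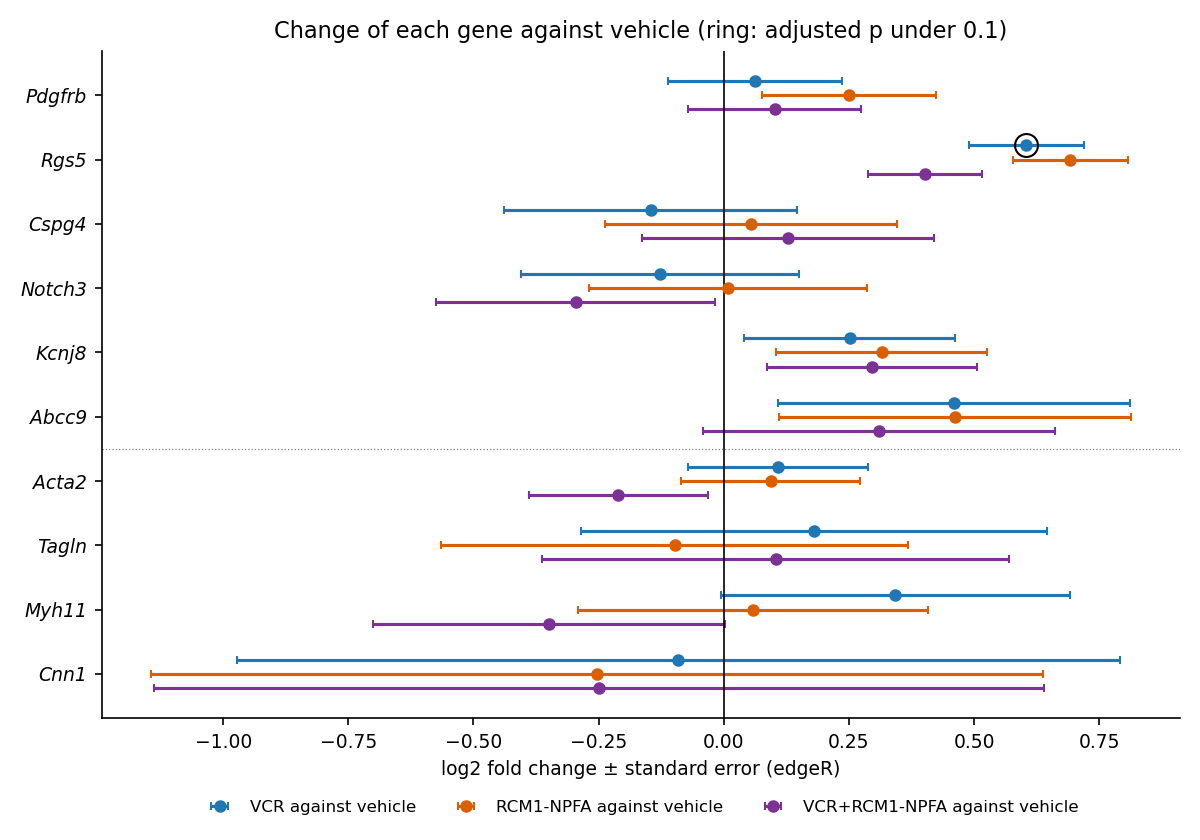
Log2 fold change of each gene against vehicle (x axis) with its standard error from edgeR, 1 row per gene, pericyte genes above the dotted line and contractile genes below it. Colors mark the 3 treated groups, each of 3 tumors, and the ring marks the single adjusted p under 0.1. *Rgs5* stands to the right of 0 by 0.40 to 0.69, and the error bars of *Cnn1* are the widest, with standard errors up to 0.89.

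Over the 6 pericyte genes the median log2 fold change was 0.16 after VCR, 0.28 after RCM1-NPFA and 0.21 after the combination, beside medians of at most 0.0028 over all tested genes. Over the 4 contractile genes it was 0.14, -0.020 and -0.23. After VCR 4 of 6 pericyte genes had a value above 0, after RCM1-NPFA 6 of 6 and after the combination 5 of 6, and in each case *Rgs5* was the single one of the 10 members with an unadjusted p under 0.05. Such a p was found for 22.1%, 9.78% and 7.31% of all tested genes in the 3 comparisons, so the members held fewer of them than all genes after VCR and about as many in the others.

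The members were then set against 15 endothelial genes. As the mean of log2(TPM + 0.1), the endothelial level was 2.92 ± 0.28 for vehicle, 3.31 ± 0.14 for VCR, 3.28 ± 0.21 after RCM1-NPFA and 3.28 ± 0.025 after the combination (SD, n = 3 each). These group means were 0.36 to 0.39 above vehicle, but m1 (3.24) overlapped the treated tumors. Of the endothelial genes, 4 of 15 were called higher after VCR and 0 lower, beside 5.55% of all genes called. They were the adhesion molecule gene *Esam* (log2 fold change 0.74), *Egfl7* (0.83), which encodes a protein secreted by endothelium, and the receptor genes *Robo4* (0.55) and *Tie1* (0.81). EdgeR called 0 after the other treatments. At an unadjusted edgeR p under 0.05, 9 of 15 were higher after RCM1-NPFA and 0 lower, beside 5.34% and 4.44% of tested genes. After the combination 8 were higher and 1 lower, beside 3.82% and 3.49%.

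The pericyte level on the same scale was 3.05 ± 0.14 in vehicle-treated tumors and 3.20 ± 0.11, 3.32 ± 0.18 and 3.24 ± 0.15 after VCR, RCM1-NPFA and the combination. Relative to the endothelial level it was 0.13 ± 0.23 for vehicle, -0.11 ± 0.12 after VCR, 0.040 ± 0.14 after RCM1-NPFA and -0.037 ± 0.12 after the combination. The 3 vehicle-treated tumors alone spanned -0.11 to 0.34, so the groups overlapped and the differences of -0.24, -0.087 and -0.16 were of the size of the spread. Without m3 the difference after RCM1-NPFA was 0.019. The pericyte genes averaged here did not all vary together across the tumors. Between pairs of them, Pearson's r of log2(CPM + 0.1) ran from -0.579 (*Notch3* with *Abcc9*) to 0.635 (*Kcnj8* with *Abcc9*). Whether their mean follows the number of pericytes was not tested. For *Rgs5* alone, the level relative to endothelium was 0.69 ± 0.20 for vehicle, 0.83 ± 0.15 for VCR, 0.99 ± 0.13 after RCM1-NPFA and 0.75 ± 0.051 after the combination. The vehicle tumor m2, at 0.92, was above all combination tumors on this scale, so treated and vehicle-treated tumors overlapped once endothelial genes were taken as the reference.

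The contractile level relative to endothelium was lower and more variable. It was -0.86 ± 0.93 for vehicle, -1.09 ± 0.46 for VCR, -1.12 ± 0.38 after RCM1-NPFA and -1.26 ± 0.56 after the combination. The vehicle tumors covered nearly the whole range, from -1.61 in m3 to 0.18 in m2, the single tumor where contractile genes exceeded endothelial ones. Without m2 the differences from vehicle changed sign, to 0.29, 0.26 and 0.11.

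**Figure D3:**
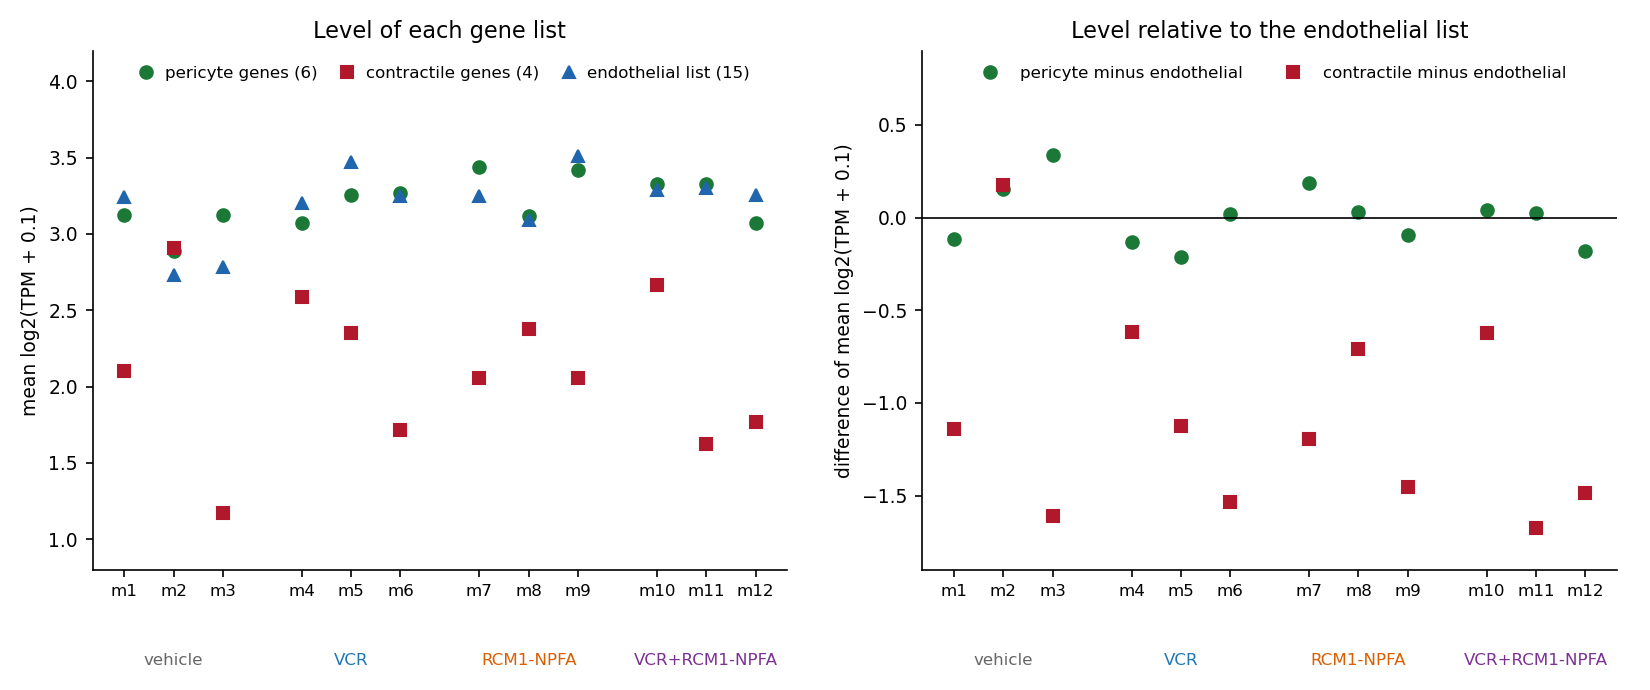
Left, mean log2(TPM + 0.1) of the 6 pericyte genes, the 4 contractile genes and the 15 endothelial genes (y axis) in each tumor (x axis, by group). Right, the pericyte and contractile levels minus the endothelial level, where 0 marks equality. Pericyte points lie within 0.34 of the endothelial level in every tumor, while contractile points fall from 0.18 in m2 to -1.68 in m11.

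Further genes of the same biology were counted from lists. Of 24 tested other mural genes, 2 were called higher after VCR and 0 lower, where 2.8% of all tested genes were called higher and 2.75% lower. *Mcam*, which encodes an adhesion molecule shared by mural and endothelial cells, had a log2 fold change of 0.48 (edgeR adjusted p = 0.0766). *Ndufa4l2*, a mitochondrial gene enriched in pericytes, had 1.20 (edgeR adjusted p = 0.0870). The list median was 0.28 after VCR, 0.23 after RCM1-NPFA and 0.14 after the combination, and 15 to 18 of 24 values were above 0. At an unadjusted edgeR p under 0.05, 6 were higher and 3 lower after VCR, beside 11.7% and 10.4% of tested genes. After RCM1-NPFA 5 were higher and 2 lower (5.34% and 4.44%), and after the combination 3 and 2 (3.82% and 3.49%). The list's summed TPM was highest in m9 (5543) and m5 (4531), which also had the highest muscle fibre sums. In vehicle-treated tumors it was at most 2928. The part of muscle RNA in this list was not tested. Of the 18 ligands and receptors of PDGF, angiopoietin and TGF-beta signaling, 2 were called higher after VCR, *Eng* (0.58, edgeR adjusted p = 0.0688) and *Tie1*, both expressed by endothelium, and 0 lower. No gene of this list was called in the other comparisons with vehicle, where 5 of 18 had an unadjusted p under 0.05 in each, all higher, as had 5.34% of tested genes after RCM1-NPFA and 3.82% after the combination.

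Of 15 tested Notch pathway genes, *Notch3* not counted, 6 were called after VCR, 3 in each direction, against 5.55% of all tested genes. *Lfng*, which modifies Notch receptors with sugars, was higher by 0.46 on the log2 scale (edgeR adjusted p = 0.0759), as were the target *Hes1* and the ligand *Jag2*. *Notch1* (-0.53, edgeR adjusted p = 0.0748), *Notch2* and the DNA-binding partner *Rbpj* (-0.52, edgeR adjusted p = 0.0719) were lower. *Hes1*, *Jag2* and *Notch2* were named after their values were seen. Of 13 tested regulators and partners of SRF, the cofactor *Mrtfa* was called higher (0.25, edgeR adjusted p = 0.0870), while *Flna* (-0.31, edgeR adjusted p = 0.0870), an actin crosslinker, and *Tead1* (-0.26, edgeR adjusted p = 0.0980) were called lower after VCR. *Myocd*, which encodes myocardin itself, had too few reads to be tested. In all these lists edgeR called 0 genes after RCM1-NPFA or the combination, and DESeq2 with all 12 tumors called 0 to 2 per list in the former and 0 in the latter.

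Markers of other cells of the tumor were read beside the members, against 5.55% of tested genes called after VCR and 0% after the other treatments. All 18 muscle fibre genes had a log2 fold change above 0 after each treatment, with medians of 6.97, 7.01 and 5.41, and 9 were called after VCR. Groups did not overlap for 18, 9 and 18 of them, all higher, beside 11%, 4.23% and 7.49% of tested genes. After RCM1-NPFA the high values were those of m9. Its summed TPM was 21780, while m7 had 268 and m8 307, near the 273 of the vehicle tumor m1. Of 12 fibroblast genes 3 were called after VCR, all higher, *Col1a1* (0.76), *Dcn* (1.28) and *Pi16* (1.50), and the list had medians of 0.75, 0.43 and 0.59. The 7 adipocyte genes had medians of -0.58, -3.08 and -1.41 with 0 called, and 3 had an unadjusted p under 0.05 after RCM1-NPFA, all lower, as did 4.44% of tested genes. Their summed TPM ran from 19.0 to 334 within the vehicle group alone. For 8 leukocyte and 4 tested Schwann cell genes edgeR called 0, with medians between -0.091 and 0.15. At an unadjusted p under 0.05 there were 2 leukocyte genes after VCR, 1 in each direction, beside 22.1% of tested genes, and DESeq2 called 1 there. The part of muscle, fibroblast and adipocyte RNA in the differences between the members was not tested.

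Across the 12 tumors, each member was correlated with the mean log2(CPM + 0.1) of endothelial, fibroblast and muscle fibre genes, in 30 relations with 100000 permutations. Tumors were permuted without regard to group, so differences between groups enter these p-values. *Rgs5* followed the endothelial list (Pearson's r = 0.833, permutation p = 0.00049, adjusted p = 0.0147; Spearman's rho = 0.713, permutation p = 0.0122, adjusted p = 0.184). It also followed the fibroblast list (r = 0.770, permutation p = 0.00262, adjusted p = 0.0197; rho = 0.629, permutation p = 0.0325, adjusted p = 0.212). *Abcc9* followed the endothelial list (r = 0.805, permutation p = 0.00189, adjusted p = 0.0189; rho = 0.636, permutation p = 0.0297, adjusted p = 0.212) and the muscle fibre list (r = 0.798, permutation p = 0.00184, adjusted p = 0.0189; rho = 0.615, permutation p = 0.0373, adjusted p = 0.212). These 4 were past an adjusted p of 0.05 by r, and none was by rho. Just outside were *Rgs5* with muscle fibre genes (r = 0.722, permutation p = 0.00857, adjusted p = 0.0514; rho = 0.601, permutation p = 0.0424, adjusted p = 0.212) and *Kcnj8* with endothelial genes (r = 0.700, permutation p = 0.0123, adjusted p = 0.0615; rho = 0.741, permutation p = 0.00808, adjusted p = 0.184).

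The relations rested in part on 2 vehicle-treated tumors. Without m2 and m3, which are farthest from the median of each list, r was 0.649 for *Rgs5* with endothelial genes, 0.407 for *Rgs5* with fibroblast genes, 0.794 for *Abcc9* with endothelial genes and 0.685 for *Abcc9* with muscle fibre genes, and 0 relations passed. Within groups, as deviations from the group means, r was 0.666, 0.585, 0.835 and 0.885. *Pdgfrb*, *Cspg4*, *Notch3* and the 4 contractile genes gave an adjusted p of at least 0.570 for r and at least 0.471 for rho with each of the 3 lists.

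After the values of *Tagln*, *Myh11* and *Cnn1* were seen, the adipocyte list was added to this family, which then held 40 relations. The 3 genes followed it, with r = 0.747 (permutation p = 0.00553, adjusted p = 0.0369), 0.776 (permutation p = 0.0043, adjusted p = 0.0344) and 0.718 (permutation p = 0.00946, adjusted p = 0.0473). Spearman's rho was 0.720 (permutation p = 0.0106), 0.762 (permutation p = 0.00599) and 0.776 (permutation p = 0.0046), each with an adjusted p of 0.0918. Without m2 and m3, r was 0.554, 0.658 and 0.511, and within groups 0.834, 0.818 and 0.852. Because these relations were chosen after the values were seen, their p-values describe them and do not test them. *Acta2*, the fourth contractile gene, had r = 0.419 (permutation p = 0.178, adjusted p = 0.477) and rho = 0.448 (permutation p = 0.150, adjusted p = 0.411). *Notch3* ran the other way, with r = -0.637 (permutation p = 0.0217, adjusted p = 0.0869) and rho = -0.699 (permutation p = 0.0138, adjusted p = 0.0918), r = -0.341 without m2 and m3 and -0.789 within groups. Among the 45 pairs of members, *Tagln* and *Cnn1* had the highest r (r = 0.785, permutation p = 0.00273, adjusted p = 0.123; rho = 0.741, permutation p = 0.00753, adjusted p = 0.162), r was 0.582 without the 2 farthest tumors, *Tagln* and *Myh11* had a slightly higher rho (r = 0.664, permutation p = 0.0189, adjusted p = 0.201; rho = 0.755, permutation p = 0.00654, adjusted p = 0.162), and no pair passed the adjusted threshold.

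**Figure D4:**
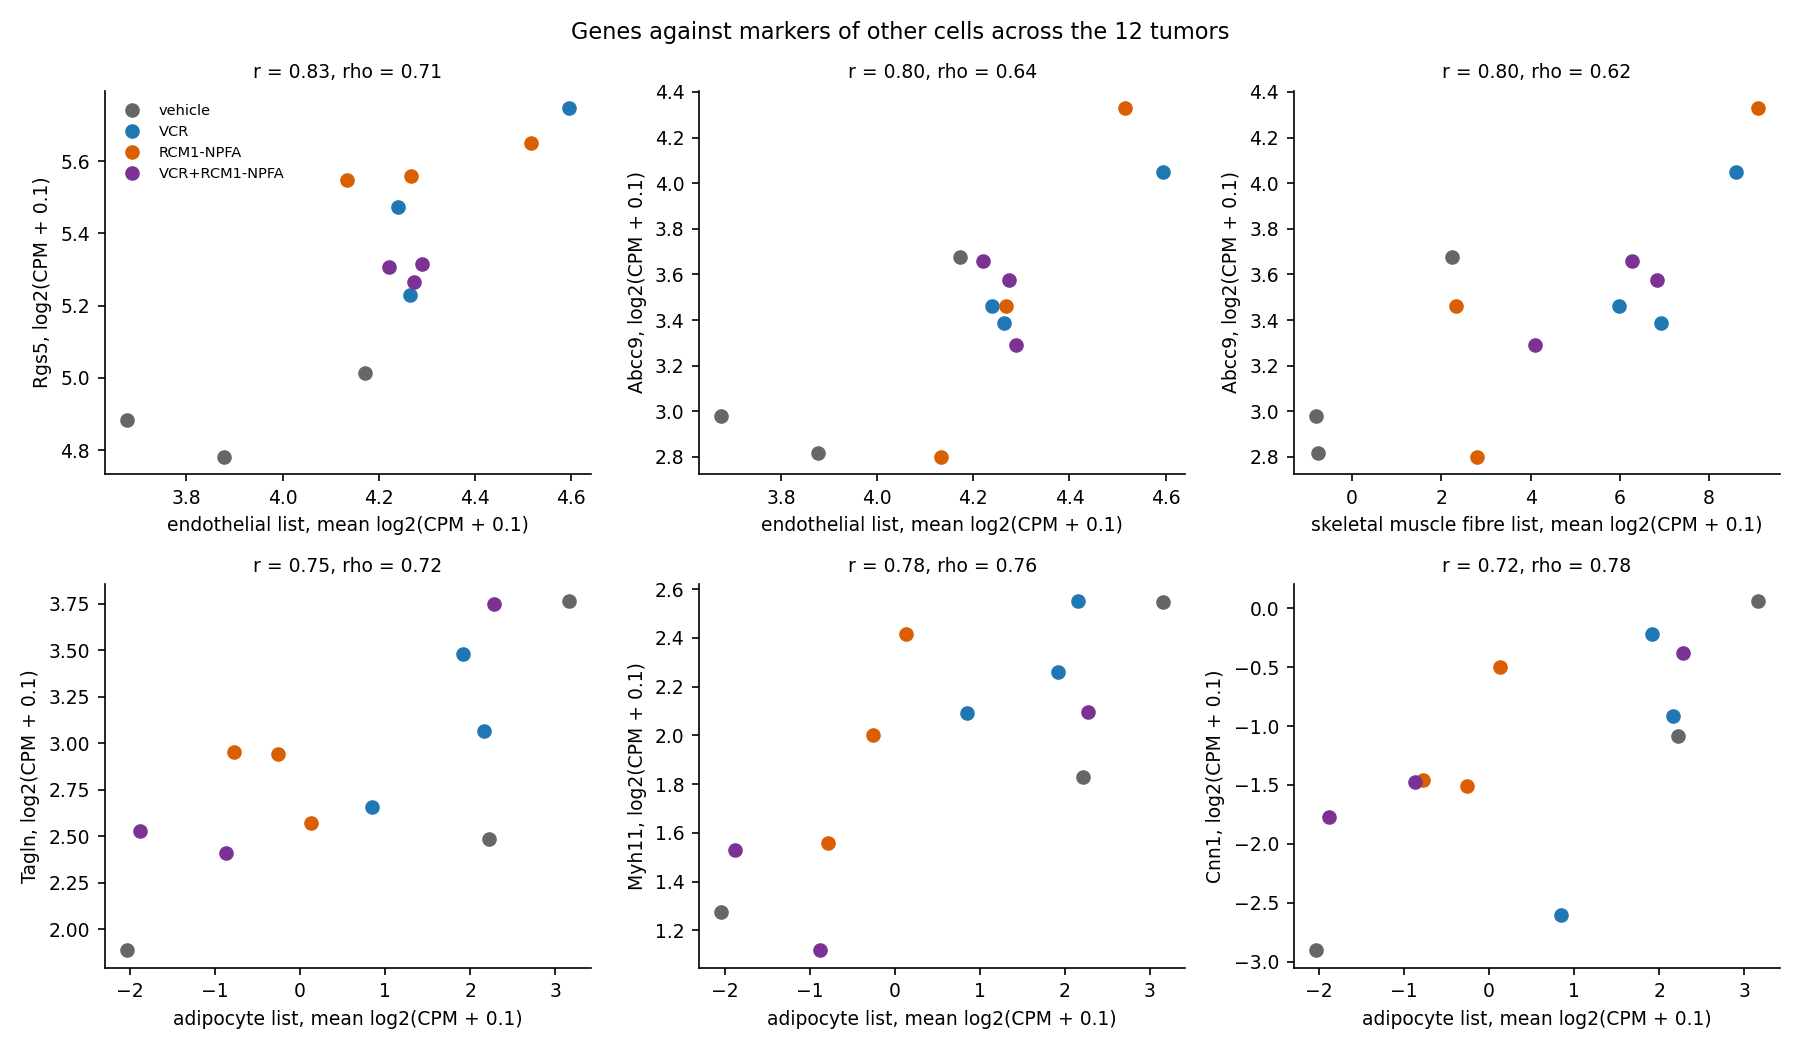
Level of a member (y axis, log2(CPM + 0.1)) against the mean level of a marker list (x axis, same unit) across the 12 tumors, colored by group, with r and rho above each panel. In the upper row m2 and m3, vehicle-treated, form the lower end of each x axis, and in the lower row *Tagln*, *Myh11* and *Cnn1* tend to be higher in tumors with more adipocyte RNA, with exceptions such as m1.

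The genes whose log2(CPM + 0.1) was most like that of a member over the 12 tumors were mostly outside these lists. For *Rgs5* they were *Hrh1* (r = 0.949), *Palmd* (r = 0.934) and *Gm2260* (r = 0.928). For *Pdgfrb* they were *Hhat*, *Camk1g* and *Mxra8* (r = 0.909 to 0.917), and for *Notch3* they were *Sgce*, *Pcdhgc3* and *Ext2* (r = 0.935 to 0.949). The endothelial phosphatase gene *Ptprb*, which is on a list, was among the 3 most like *Abcc9* (r = 0.934). *Cspg4*, *Kcnj8*, *Acta2*, *Tagln*, *Myh11* and *Cnn1* had a highest r from 0.855 for *Myh11* with *Gm12426* to 0.943 for *Kcnj8* with *Ugdh*. These r are the highest of 17602 genes in 12 tumors and are given as a description, without a test.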

How the data were processed

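RNA was measured in 12 bulk tumors, 3 per group, with groups taken from the titles. Per the labels and the methods, the authors made poly-A libraries and assigned reads to GRCm38 transcripts with kallisto (version not given in the sources used here). For each transcript they deposited an estimated count, not normalized, a TPM value and an effective length. The kit named is stranded while the libraries are called non-stranded, so reads of overlapping antisense genes may not be told apart.

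All 120299 transcripts were matched to RefSeq genes and the deposited estimated counts and TPM were summed per gene. Sums of counts were rounded, filtered by filterByExpr (minimum count 10, leaving 17602 genes), normalized by TMM and tested by edgeR 4.0.16 (quasi-likelihood F test, R 4.3.3), all 4 groups together, and p-values were adjusted by Benjamini-Hochberg over all tested genes with a threshold of 0.1. DESeq2 1.42.0 and limma 3.58.1 were alternatives, and the fits were checked on simulated data. Levels on a log scale are log2 of TPM or CPM with a pseudocount of 0.1. Exact permutation tests used log2 CPM, and overlap of groups was judged on TPM. Correlations were permuted 100000 times (Python 3.11.15, numpy 2.4.6, scipy 1.17.1, pandas 2.3.3; figures with matplotlib 3.10.9). Nothing says whether libraries were prepared in batches. P-values measure the spread between mice.

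The members, lists and tests were chosen with earlier results of these data known. Named genes are all members; of each other list the 3 genes with the lowest p among those called against vehicle, or otherwise the 3 highest by mean TPM, given where a result turns on them; and the 3 genes most alike to each member. The looser CArG form, the adipocyte relations and the term for the adipocyte level were chosen after seeing the data, as was the cut of 5 CPM for Y-linked transcripts. Alternatives were DESeq2's size factors, no filter, a mean count of 50, only the groups compared, robust empirical Bayes, offsets for effective length, limma-voom, DESeq2, a threshold of 0.05, terms for muscle fibre, endothelial and adipocyte levels and Y-linked transcripts, a pseudocount of 1, log2 CPM in place of TPM, and leaving out each tumor. Other genes most like *Abcc9* are not reported here.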

Additional observations from a re-analysis of the deposited data

Results flagged for a closer look

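For *Rgs5*, the interaction of the drugs was called by DESeq2 and not by edgeR. It was -0.89 on the log2 scale, with changes against vehicle of 0.60 after VCR, 0.69 after RCM1-NPFA and 0.40 after both. It was picked out because a test of the interaction itself passed in DESeq2. With all 12 tumors DESeq2 gave an adjusted p of 0.000902, while edgeR's adjusted p of 0.293 missed the threshold of 0.1. In edgeR it missed the threshold without each of the 12 tumors in turn, and of 12 other settings only this DESeq2 fit passed. A negative interaction was not particular to *Rgs5*. Its median was -0.62 over 15 endothelial, -0.76 over 12 fibroblast and -8.45 over 18 muscle fibre genes. DESeq2 called 4, 2 and 15 of these, beside 2.84% of the genes it tested. The medians of the adipocyte and leukocyte lists were positive, at 1.85 and 0.24, with 0 called.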

How the results depend on the processing

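No paired analysis was possible because the tumor numbers are not repeated between groups and nothing in the labels matches mice. Of the members, 1 was called after VCR, and 0 were called with only the groups compared, at a threshold of 0.05, with a term for the muscle fibre level or with a term for the endothelial level. Without 1 tumor the number was 0 to 1, and it was 0 without m2, m4, m5 or m11. After RCM1-NPFA DESeq2 called 1 member in both of its fits, after the combination 1 with only the groups compared, and 1 interaction with all 12 tumors, each time *Rgs5*. EdgeR and limma-voom called 0 in these comparisons under every alternative, also without each tumor. The muscle fibre and endothelial levels differ between the groups themselves, so a term for them removes part of the group difference. The number of relations with other cells past the threshold was 0 without the 2 tumors farthest from the median, 8 with the adipocyte list, and 0 to 5 without 1 tumor (0 without m3 or m5). The sign of *Rgs5* held in every setting run, from 0.35 to 0.72 after VCR, 0.48 to 0.76 after RCM1-NPFA and 0.21 to 0.47 after the combination.

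Uncalled members changed sign as follows, on the log2 scale against vehicle, and the cause was not tested. With a term for the endothelial level, values after VCR were -0.10 for *Pdgfrb*, 0.087 for *Cspg4*, 0.22 for *Notch3*, -0.13 for *Kcnj8*, -0.59 for *Abcc9* and 1.05 for *Cnn1*. With it, values after RCM1-NPFA were -0.035 for *Kcnj8*, -0.52 for *Abcc9*, 0.47 for *Tagln* and 0.68 for *Cnn1*, and after the combination -0.021 for *Pdgfrb*, -0.0024 for *Kcnj8*, -0.46 for *Abcc9* and 0.63 for *Cnn1*. With a term for the muscle fibre level, values after VCR were 0.53 for *Notch3*, -0.065 for *Kcnj8*, -0.82 for *Abcc9* and 0.13 for *Cnn1*, after RCM1-NPFA -0.44 for *Abcc9*, and after the combination 0.23 for *Notch3*, -0.68 for *Abcc9* and 0.0061 for *Acta2*. With a term for the adipocyte level, values after VCR were 0.059 for *Notch3* and 0.14 for *Cnn1*, after RCM1-NPFA -0.13 for *Notch3*, 0.53 for *Tagln* and 1.39 for *Cnn1*, and after the combination 1.02 for *Cnn1*. In limma-voom *Cnn1* was 0.20, 0.44 and 0.36 after VCR, RCM1-NPFA and the combination, and *Tagln* 0.12 after RCM1-NPFA. With a term for Y-linked transcripts *Cnn1* was 0.38, 0.27 and 0.083 in the same order, and *Notch3* and *Tagln* were -0.066 and 0.25 after RCM1-NPFA. With a mean count of at least 50, *Notch3* was -0.0058 after RCM1-NPFA.

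Without 1 tumor, values after VCR ran from -0.14 to 0.19 for *Pdgfrb*, -0.39 to 0.10 for *Cspg4*, -0.36 to 0.36 for *Notch3*, 0.095 to 0.33 for *Kcnj8*, 0.22 to 0.77 for *Abcc9*, -0.013 to 0.23 for *Acta2*, -0.15 to 0.89 for *Tagln*, 0.083 to 0.73 for *Myh11* and -0.85 to 0.99 for *Cnn1*. After RCM1-NPFA they ran from 0.058 to 0.38 for *Pdgfrb*, -0.19 to 0.30 for *Cspg4*, -0.22 to 0.49 for *Notch3*, 0.17 to 0.50 for *Kcnj8*, -0.041 to 0.77 for *Abcc9*, -0.016 to 0.22 for *Acta2*, -0.43 to 0.62 for *Tagln*, -0.20 to 0.46 for *Myh11* and -0.79 to 0.84 for *Cnn1*. After the combination they ran from -0.097 to 0.23 for *Pdgfrb*, -0.12 to 0.39 for *Cspg4*, -0.53 to 0.19 for *Notch3*, 0.15 to 0.39 for *Kcnj8*, 0.15 to 0.62 for *Abcc9*, -0.33 to -0.049 for *Acta2*, -0.48 to 0.81 for *Tagln*, -0.68 to 0.046 for *Myh11* and -0.99 to 0.84 for *Cnn1*. Depth limits *Cnn1* most, at no more than 28 reads in any tumor.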
